A study of Rattus norvegicus with 9 samples.

Results

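Transient receptor potential (TRP) channels that respond to heat, cold or irritant chemicals were examined in 9 RNA-Seq libraries of rat dorsal root ganglia (DRGs), the home of the sensory neurons that serve the hind limb. The set held 9 genes, picked by gene symbol and not by their values, of the 20413 genes in the deposited expression table: Trpv1, Trpv2, Trpv4, Trpa1, Trpm8, Trpm2, Trpm3, Trpc5 and Trpc6. All 9 were in the table, and all 9 were among the 17187 genes tested, those averaging at least 0.1 FPKM (read fragments relative to transcript length and to all mapped fragments) over the libraries. All groups were male Sprague Dawley rats aged 8 to 10 weeks that received the same anesthesia. In the CPIP group (chronic post-ischemia pain) a tight O-ring kept blood from the right hind paw for 3 h before reperfusion. The Sham group, labelled Con in the repository, wore a severed ring that left blood flow open. The CPIP+EA group had the ischemia and daily electroacupuncture at high frequency, 30 min a session in 10 sessions, through needles at ST36 and BL60 of both hind limbs. The labels and methods give no needling without current for the Sham or CPIP rats, so needling and current cannot be told apart. Right L4–6 DRGs were taken on day 10 after saline perfusion, and each group had 3 libraries, per the methods from 3 rats.

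TRP channels are cation channels built of 4 subunits, and in sensory neurons they turn a physical or chemical stimulus into a current that can start an action potential. TRPV1 answers capsaicin, acid and noxious heat, TRPA1 answers electrophilic irritants such as mustard oil, and TRPM8 answers menthol and cooling. Kinases and phospholipases downstream of bradykinin and prostaglandin receptors are known to change how readily TRPV1 and TRPA1 open, so a pain state can involve these channels with or without a difference in their RNA.

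For the members on which the results turn, the RefSeq promoter windows of the rat build GRCr8 are printed over the 250 bases that end just before the annotated start, 5′ to 3′ on the gene's strand. A window was given for 8 of the 9 members and none for Trpa1. Trpv1 and Trpv2 are shown because the ratio of their levels in the Sham libraries did not overlap with that in the ischemia libraries, a description with no test. Trpm8 is shown as a member whose levels overlapped in all comparisons, and its window belongs to a start inside the annotated gene. The windows are chr10:58349686-58349935 for Trpv1, chr10:47771973-47772222 for Trpv2 and chr9:96351433-96351682 for Trpm8, all on the plus strand. Capitals mark matches to any of 5 motifs on either strand, which were the TATA box with letters TATAAA, the CCAAT box, the Sp1 site with letters GGGCGG, the AP-1 site with letters TGANTCA and the cyclic AMP response element with letters TGACGTCA.
Trpv1: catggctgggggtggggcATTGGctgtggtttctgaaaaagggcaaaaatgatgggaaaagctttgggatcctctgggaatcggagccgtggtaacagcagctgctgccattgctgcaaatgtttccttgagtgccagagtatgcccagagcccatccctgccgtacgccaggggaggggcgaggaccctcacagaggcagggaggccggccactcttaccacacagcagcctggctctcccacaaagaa
Trpv2: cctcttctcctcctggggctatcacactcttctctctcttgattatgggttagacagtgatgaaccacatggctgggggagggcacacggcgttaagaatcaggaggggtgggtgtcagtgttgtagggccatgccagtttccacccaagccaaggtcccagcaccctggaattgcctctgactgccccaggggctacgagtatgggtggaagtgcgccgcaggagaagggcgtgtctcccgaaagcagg
Trpm8: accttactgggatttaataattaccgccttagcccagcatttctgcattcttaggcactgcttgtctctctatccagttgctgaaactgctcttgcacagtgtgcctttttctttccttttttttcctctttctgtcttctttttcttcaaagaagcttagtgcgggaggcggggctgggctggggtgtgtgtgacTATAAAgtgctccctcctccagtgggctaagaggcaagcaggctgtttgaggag

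The Trpv1 window held CCAAT on the minus strand, 232 bases before the start, a motif found in 34.0% of the 33469 RefSeq windows of the same length. Trpm8 held TATAAA 54 bases before the start, found in 12.9% of the windows, and Trpv2 held none of the 5. The AP-1 site, found in 6.34% of all windows, and the cyclic AMP response element, found in 1.59%, were in none of the 9 windows given for 8 members. The G and C content of the Trpv1 and Trpv2 windows was 58.4% each, against 48.0% for Trpm8. These matches describe letters and not bound sites.

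The libraries were first described by marker genes. All 12 pan-neuronal genes were detected, with summed FPKM between 5559 and 7824. The 12 nerve injury genes, which include Atf3, Gal and Npy, all rose in CPIP and in CPIP+EA against Sham by the limma test described next. The lists were chosen with earlier results of these data known, so this rise is a description and not a check. The nerve injury genes summed to between 64.0 and 72.8 FPKM in the Sham libraries and to between 607 and 738 in the 6 libraries of rats with the ischemia. Library CPIP+EA replicate 3 stood apart in blood and immune RNA. The 10 neutrophil markers summed to 645 FPKM there, with 9 of the 10 at their highest, against 35.8 to 272 in the other 8 libraries. By group the neutrophil sum ran from 54.2 to 156 (Sham), from 35.8 to 272 (CPIP) and from 69.8 to 645 (CPIP+EA), and no marker was at 0 in all libraries. The 10 macrophage markers summed to 329 to 429 FPKM (Sham), 392 to 597 (CPIP) and 403 to 867 (CPIP+EA), with the highest sum again in CPIP+EA replicate 3. CPIP replicate 2 had the second highest neutrophil sum and the highest sum of the 8 skeletal muscle markers, 164 FPKM against 7.90 to 50.6 in the others.

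Trpv1 was the most abundant member, with 30.1 FPKM on average over the 9 libraries, and 85.2% of all genes in the table were lower. Trpa1 followed with 23.7 FPKM, Trpm8 with 20.02 and Trpv2 with 19.4. Trpm3 at 13.2 and Trpm2 at 8.96 FPKM were intermediate, and Trpc6 at 1.94, Trpc5 at 1.01 and Trpv4 at 0.487 were low. Trpv1 lay above Trpa1 in 9 of 9 libraries, although their ranges over all libraries overlapped. Trpa1 lay above Trpm8 in 7 of 9, with a mean log2 difference of 0.22 (SD 0.22) within libraries. The exceptions were CPIP replicate 2 and CPIP+EA replicate 3. Trpm8 lay above Trpv2 in 6 of 9, with a mean log2 difference of 0.043 (SD 0.16). The ranges of these neighbours overlapped, and their order was not tested. From Trpv2 to Trpm3, from Trpm3 to Trpm2 and from Trpm2 to Trpc6 the ranges did not overlap. Trpc6 exceeded Trpc5 in all 9 libraries with overlapping ranges, and Trpc5 exceeded Trpv4 without overlap. FPKM is scaled to transcript length, so these are levels compared per length, and the read counts behind them are not in the table.

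**Figure D1:**
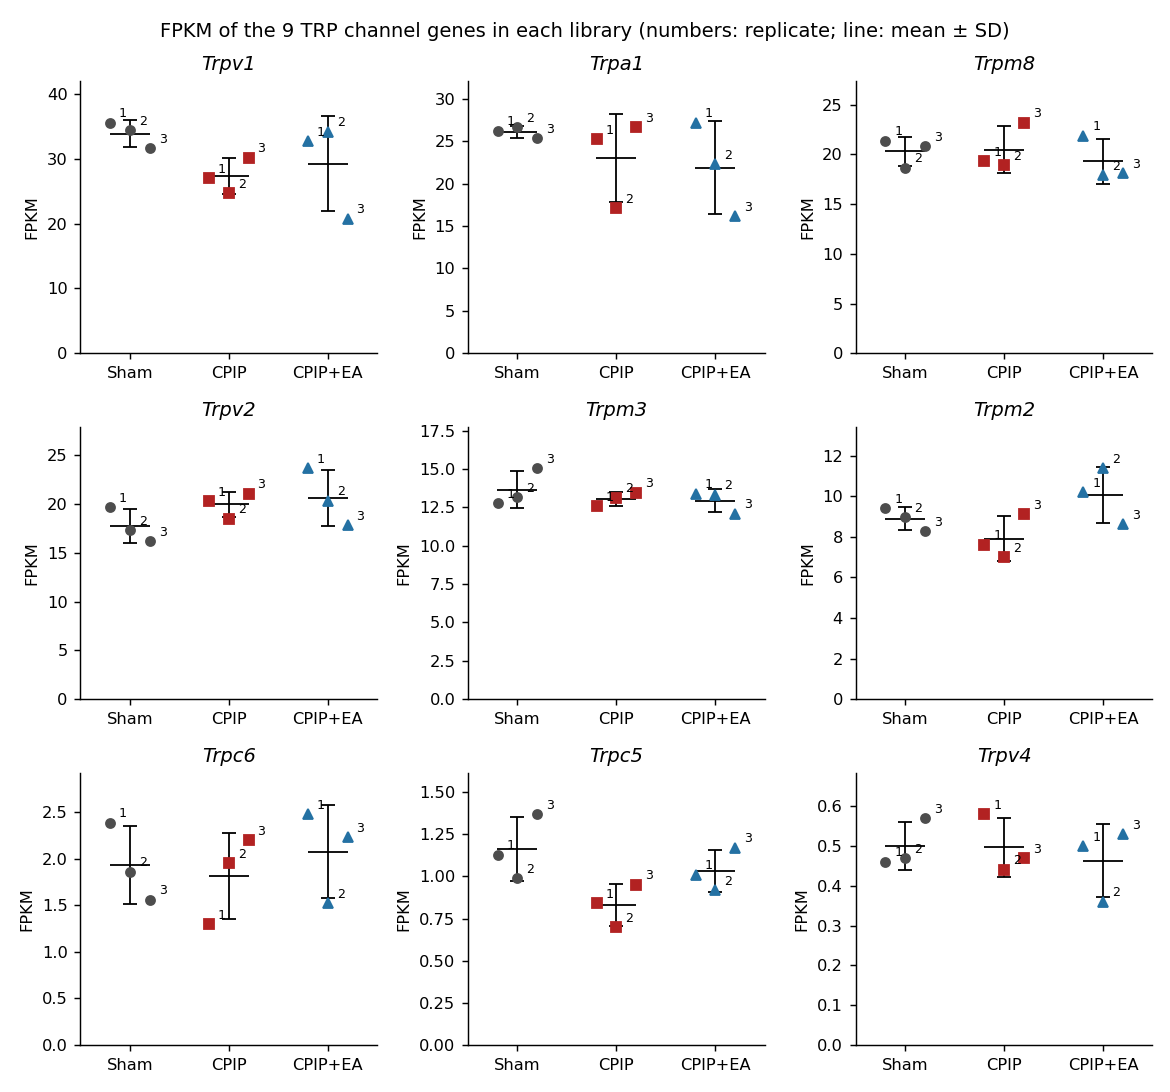
FPKM (vertical axes, starting at 0) of each of the 9 genes in Sham, CPIP and CPIP+EA; each symbol is 1 library with its replicate number, and the line and bars are the mean ± SD of 3 libraries. Groups overlap in most panels, the CPIP symbols lie below the Sham symbols for Trpv1 and Trpc5, and CPIP+EA replicate 3 holds the lowest Trpv1 and Trpa1 values, 20.8 and 16.2 FPKM.

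None of the 9 genes passed the threshold for a differentially expressed gene (DEG), an adjusted p under 0.01 with a change of at least 1.5-fold, in any comparison. The test was limma on log2(FPKM + 0.5) with all 9 libraries in 1 fit and Benjamini-Hochberg adjustment over the 17187 genes, and fold changes are on that scale, which understates changes of low genes. Among all genes tested 0.355% passed between CPIP and Sham, 0.0% between CPIP+EA and CPIP, 0.483% between CPIP+EA and Sham, and 0.599% between the 6 libraries with ischemia, with or without EA, and Sham. With so small a background, 0 of 9 is also what the share among all genes gives, and it does not set the TRP genes apart. At an unadjusted p under 0.05 there was 1 member, Trpc5, between CPIP and Sham, where 8.66% of all genes reached it. There was 1, Trpm2, between CPIP+EA and CPIP, where 4.29% did, and none between CPIP+EA and Sham (12.2% of all genes) or in the comparison of both ischemia groups with Sham (11.8%). The comparisons with Sham share the same 3 Sham libraries. P-values rest on the spread within groups of 3 libraries, pooled over all groups and drawn towards a trend over all genes. A library of the group not compared therefore bears on them too.

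The 95% intervals show how large a difference could have been missed. Between CPIP and Sham the interval lay within 1.5-fold in both directions for 6 of the 9 genes, and it did so for 7 of 9 in each of the other comparisons. The median log2 fold change of the members was −0.080 in CPIP against Sham, where all genes tested had −0.0064. CPIP+EA against CPIP gave the members 0.038 and all genes 0.012, and CPIP+EA against Sham gave −0.074 and 0.0014.

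**Figure D2:**
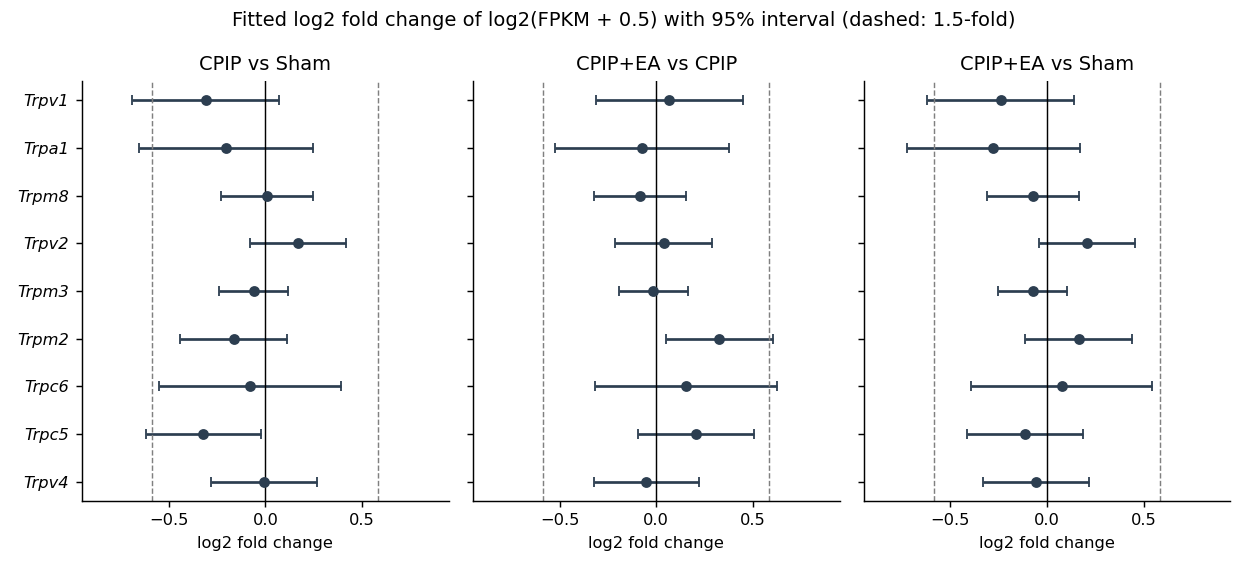
Fitted log2 fold change of the 9 genes (horizontal axis) in the comparisons of 2 groups; points are limma estimates, bars their 95% intervals, and dashed lines mark 1.5-fold. The interval leaves 0 for Trpc5 between CPIP and Sham and for Trpm2 between CPIP+EA and CPIP, and neither gene passed after adjustment (adjusted p of 0.528 and 0.996).

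Among the vanilloid channels, Trpv1 measured 35.6, 34.4 and 31.6 FPKM in the Sham libraries, 27.0, 24.7 and 30.2 in the CPIP libraries and 32.8, 34.2 and 20.8 in the CPIP+EA libraries. All 3 CPIP values lay below all 3 Sham values, whereas the CPIP+EA values spanned both groups, with 2 libraries in the Sham range and replicate 3 below every other library. The mean was 33.9 ± 2.06 (SD, n = 3) in Sham and 27.3 ± 2.74 (n = 3) in CPIP, 19.4% lower, with a log2 fold change of −0.31 (SE 0.17, 95% interval −0.69 to 0.073) and a limma adjusted p of 0.713. Over 22 alternative fits that value ran from −0.49 to −0.24, and no adjusted p was under 0.117. The unadjusted limma p was 0.101, and it was under 0.05 in 4 of the 22 alternative fits. It was 0.00839 (adjusted p of 0.231) with only the groups compared in the fit. Without CPIP+EA replicate 3, a library of neither group, it was 0.00479 (adjusted p of 0.169). CPIP+EA averaged 29.2 ± 7.37 FPKM (n = 3), a log2 fold change of 0.069 against CPIP (limma adjusted p of 0.996) and −0.24 against Sham (adjusted p of 0.631). Without CPIP+EA replicate 3 those values were 0.29 (unadjusted limma p of 0.0112, adjusted p of 0.618) and −0.015 (adjusted p of 0.964), so this 1 library set most of the distance between CPIP+EA and Sham.

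Trpv2, a channel of larger sensory neurons and of macrophages, measured 19.7, 17.3 and 16.2 FPKM in the Sham libraries, 20.3, 18.5 and 21.1 in the CPIP libraries and 23.7, 20.4 and 17.9 in the CPIP+EA libraries. The lowest 2 values were Sham libraries and the highest was CPIP+EA replicate 1, with overlap between all groups. Its log2 fold change against Sham was 0.17 (SE 0.11, limma adjusted p of 0.796) in CPIP and 0.21 (SE 0.11, adjusted p of 0.506) in CPIP+EA, values that came to −0.0083 and −2.2e-05 when each library was centred on its pan-neuronal genes. With 1 library left out the first ran from 0.11 (without Sham replicate 3) to 0.24 (without Sham replicate 1), and the second from 0.10 (without CPIP+EA replicate 1) to 0.30 (without CPIP+EA replicate 3). The pan-neuronal genes summed to 5559 to 6280 FPKM in the Sham libraries and to 6468 to 7824 in the 6 with ischemia, but they did not move as 1 level: in each comparison with Sham 7 of the 12 lay above 0 and 5 below on the log2 scale. Gap43, a growth cone protein, passed the threshold at 1.15 and 1.24, while Rbfox3, the neuronal nuclear antigen NeuN, named after its values were seen, gave −0.34 and −0.55 (limma adjusted p of 0.558 and 0.147). The centring put the median log2 fold change of all genes at −0.18 for CPIP and −0.20 for CPIP+EA against Sham. Relative to that shift Trpv2 lay 0.17 and 0.20 higher and Trpv1 0.30 and 0.24 lower. With both ischemia groups against Sham, Trpv1 gave −0.47 under that centring, with a limma adjusted p of 0.0393 that does not meet the DEG threshold and rests on this reference of unlike members.

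Trpv4, a channel opened by swelling and warmth, was the lowest member at 0.46, 0.47 and 0.57 FPKM in the Sham libraries, 0.58, 0.44 and 0.47 in the CPIP libraries and 0.50, 0.36 and 0.53 in the CPIP+EA libraries. The groups overlapped throughout, with log2 fold changes between −0.057 and −0.0057 in the comparisons of 2 groups. At this level the pseudocount of 0.5 FPKM is about as large as the value itself.

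Although neither Trpv1 nor Trpv2 passed the test, the ratio of their FPKM within a library did not overlap between Sham and the ischemia groups, while CPIP and CPIP+EA overlapped. Trpv1 exceeded Trpv2 by a ratio of 1.81, 1.99 and 1.95 in the Sham libraries, 1.33, 1.34 and 1.43 in the CPIP libraries and 1.38, 1.68 and 1.16 in the CPIP+EA libraries. All 6 libraries of rats with the ischemia lay below the lowest Sham library, also CPIP+EA replicates 1 and 2, where Trpv1 itself was in the Sham range. A ratio within a library does not depend on how libraries are scaled to each other, and it shows unequal levels without telling which gene differed. This pair was singled out after its values were seen and is given without a test. Pairs were counted on FPKM with the pseudocount added to each gene, so calls for low members can differ from those on plain FPKM. Of the 36 pairs of members, 10 had such ratios that did not overlap between CPIP and Sham. There were 4 between CPIP+EA and CPIP, 5 between CPIP+EA and Sham, and 3 between both ischemia groups and Sham. Among all pairs of the genes tested those shares were 16.5%, 8.82%, 17.3% and 7.85%. With 36 pairs from 9 genes, 3 pairs lie near the background, so the separation of the 6 ischemia libraries is not shown to be particular to TRP channels. The 10 pairs between CPIP and Sham were spread over the set, with Trpv2 and Trpc5 in 4 each, Trpv1, Trpm8 and Trpm2 in 3 each, Trpv4, Trpa1 and Trpm3 in 1 each and Trpc6 in 0.

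**Figure D3:**
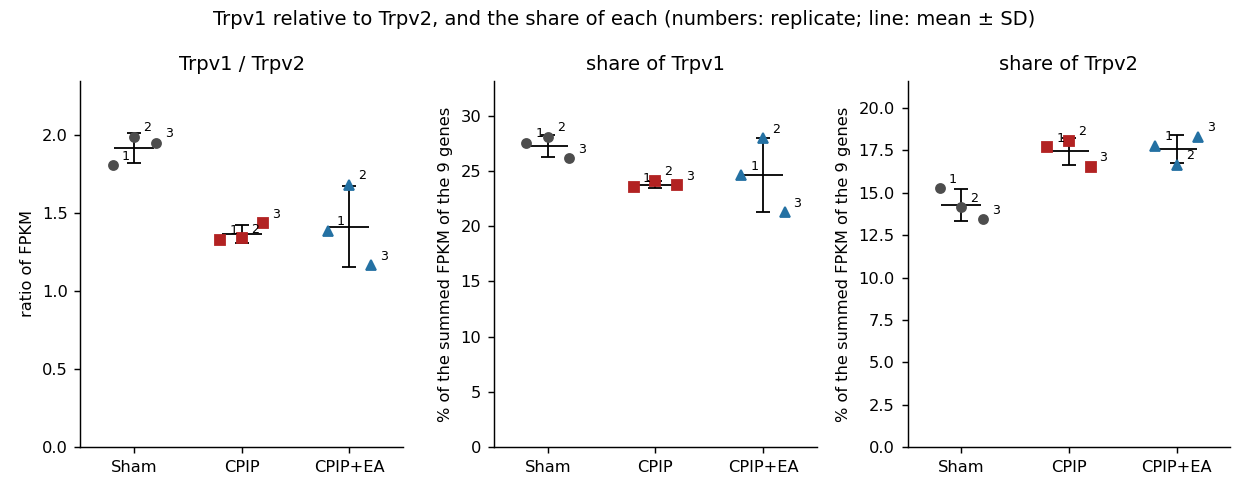
Ratio of Trpv1 to Trpv2 FPKM (left), and the percentage of the summed FPKM of the 9 genes held by Trpv1 (middle) and by Trpv2 (right), all axes starting at 0; symbols are libraries with replicate numbers and lines the mean ± SD of 3. The ratio is 1.81 to 1.99 in Sham and 1.16 to 1.68 in the 6 libraries with ischemia, and the Trpv2 share is 13.4 to 15.3% in Sham and 16.5 to 18.3% in the others.

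The makeup of the set was also compared. The 9 genes summed to 124 ± 4.35 FPKM (Sham), 115 ± 12.4 (CPIP) and 118 ± 18.2 (CPIP+EA; SD, 3 libraries each), with ranges that overlapped. Trpv2 held 15.3, 14.2 and 13.4% of that sum in the Sham libraries, 17.7, 18.1 and 16.5% in the CPIP libraries and 17.8, 16.6 and 18.3% in the CPIP+EA libraries. Trpv1 held 26.2 to 28.1% in Sham and 23.5 to 24.1% in CPIP, without overlap, but 21.3 to 28.0% in CPIP+EA. The share of Trpm2 was 6.86 to 7.31% in the Sham libraries, 6.64 to 7.17% in the CPIP libraries and 7.66 to 9.31% in the CPIP+EA libraries, which lay above both other groups. The share of Trpc5 was lowest in the CPIP libraries, at 0.683 to 0.746%, below the Sham libraries at 0.808 to 1.13% and, by little, the CPIP+EA libraries at 0.753 to 1.199%. Counted over the set, 3 of 9 shares did not overlap between CPIP and Sham (Trpv1, Trpv2 and Trpc5), 2 between CPIP+EA and CPIP (Trpm2 and Trpc5), 2 between CPIP+EA and Sham (Trpv2 and Trpm2) and 1 between both ischemia groups and Sham (Trpv2). When each of the genes tested was set against the same sum, 15.6%, 3.56%, 12.2% and 6.85% did not overlap in these comparisons. Shares of a sum are tied to each other, and they were compared after the values were seen.

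Trpa1, the irritant receptor found mostly in neurons that also carry TRPV1, measured 26.3, 26.6 and 25.3 FPKM in the Sham libraries, 25.2, 17.1 and 26.7 in the CPIP libraries and 27.2, 22.3 and 16.2 in the CPIP+EA libraries. The Sham libraries lay close together, CPIP replicate 2 and CPIP+EA replicate 3 were low, and the remaining CPIP libraries were near the Sham level. The SD was 0.663 FPKM for Sham, 5.16 for CPIP and 5.51 for CPIP+EA. The log2 fold change was −0.20 (SE 0.20, limma adjusted p of 0.904) in CPIP and −0.28 (SE 0.20, adjusted p of 0.638) in CPIP+EA against Sham. Without CPIP replicate 2 the first was −0.0078, and without CPIP+EA replicate 3 the second was −0.081, so in each group 1 library carried most of the difference. Against CPIP, CPIP+EA gave −0.074 (adjusted p of 0.996), which became 0.12 without CPIP+EA replicate 3.

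The low Trpa1 and Trpv1 libraries were those with the most neutrophil RNA. In CPIP replicate 2 the neutrophil sum was 272 FPKM and Trpa1 17.1, and in CPIP+EA replicate 3 the sum was 645 and Trpa1 16.2, against sums of 178 or less and Trpa1 of 22.3 or more in the other 7 libraries. Across the 9 libraries the log2 level of Trpa1 had a Pearson r of −0.86 with the mean log2 level of the 9 neutrophil markers tested, and the values for Trpm8 and Trpv1 were −0.85 and −0.75. With each group's mean removed, r was −0.87 for Trpa1, −0.84 for Trpm8, −0.84 for Trpv1, −0.89 for Trpv2 and −0.79 for Trpm2, but between −0.37 and 0.18 for Trpm3, Trpc5, Trpc6 and Trpv4. For Trpa1 the neutrophil list gave the value farthest from 0, followed within groups by skeletal muscle markers at −0.80. For other members different cell type lists came as far from 0 or nearly so. Within groups Trpv1 had −0.91 with endothelial and mural, −0.90 with fibroblast and meningeal and 0.91 with pan-neuronal genes, and Trpm2 had −0.89 with endothelial and mural genes. Trpm8 had −0.85 with erythroid and −0.80 with Schwann cell markers, and Trpv2 −0.85 with Schwann cell markers. These are descriptions over 9 libraries in which FPKM of all genes share 1 total. In bulk RNA a lower share of neurons and less RNA per neuron cannot be told apart, and the part of RNA from any of these cell types in the values of the members was not tested. When CPIP replicate 2 and CPIP+EA replicate 3 were both left out, a choice made after the values were seen, 0 of 9 members passed the threshold in any comparison, and Trpv1 gave −0.24 between CPIP and Sham (limma adjusted p of 0.371) and Trpa1 −0.0078 (adjusted p of 0.993).

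**Figure D4:**
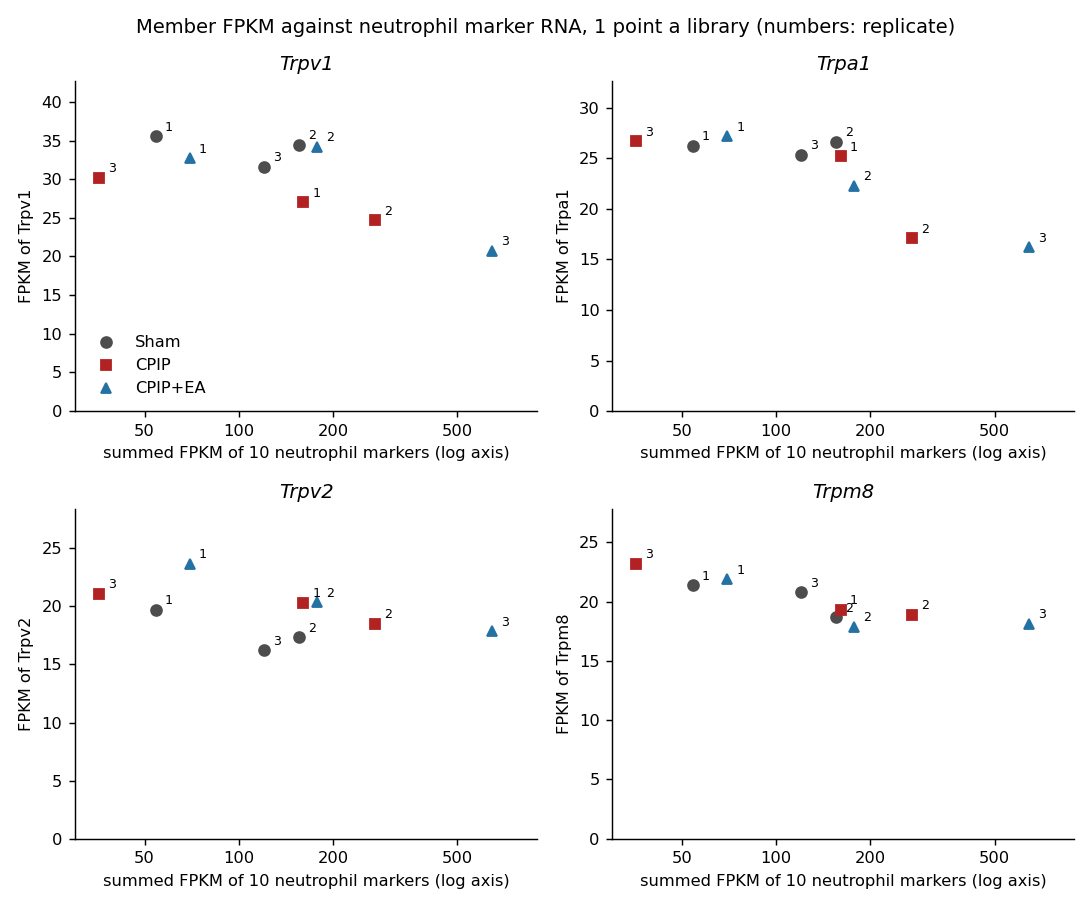
FPKM of Trpv1, Trpa1, Trpv2 and Trpm8 (vertical axes, starting at 0) against the summed FPKM of 10 neutrophil markers (horizontal log axis); each symbol is 1 of 9 libraries with its replicate number. CPIP+EA replicate 3 lies far right at 645 FPKM with the lowest Trpv1 and Trpa1, and CPIP replicate 2 lies next at 272.

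Trpm8, the menthol and cold receptor, measured 21.4, 18.7 and 20.8 FPKM in the Sham libraries, 19.3, 18.9 and 23.2 in the CPIP libraries and 21.9, 17.9 and 18.1 in the CPIP+EA libraries. The groups overlapped in every comparison. The log2 fold change was 0.0096 between CPIP and Sham (95% interval −0.23 to 0.25, limma adjusted p of 0.995), a sign that turned on a TPM scale and on centring by pan-neuronal genes. It was −0.083 between CPIP+EA and CPIP, with intervals within 1.5-fold in both cases.

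Trpm3, a channel of noxious heat opened by the steroid pregnenolone sulfate, measured 12.8, 13.2 and 15.1 FPKM in the Sham libraries, 12.6, 13.1 and 13.5 in the CPIP libraries and 13.4, 13.3 and 12.1 in the CPIP+EA libraries. It varied least of the 9 genes, with a highest library only 1.25 times the lowest, and its values overlapped between all groups. Against Sham, CPIP gave a log2 fold change of −0.060 (95% interval −0.24 to 0.12), the narrowest interval of the set.

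Trpm2, a channel gated by ADP-ribose during oxidative stress and known also from macrophages and neutrophils, measured 9.42, 8.96 and 8.29 FPKM in the Sham libraries, 7.62, 7.01 and 9.13 in the CPIP libraries and 10.2, 11.4 and 8.63 in the CPIP+EA libraries. The highest 2 values were CPIP+EA libraries and the lowest 2 were CPIP libraries, and the groups overlapped through CPIP replicate 3 and CPIP+EA replicate 3. CPIP+EA averaged 10.1 ± 1.38 FPKM and CPIP 7.92 ± 1.09 (SD, n = 3 each). CPIP+EA was thus 27.1% higher in mean, a log2 fold change of 0.33 (SE 0.12, 95% interval 0.051 to 0.60) with an unadjusted limma p of 0.0252 and an adjusted p of 0.996. The unadjusted p stayed under 0.05 in 18 of 22 alternative fits and the log2 fold change between 0.24 and 0.43, with no adjusted p under 0.610. CPIP+EA replicate 3, which held the most neutrophil and macrophage marker RNA, had the lowest Trpm2 of its group.

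Trpc5, a channel of cold sensing, measured 1.13, 0.99 and 1.37 FPKM in the Sham libraries, 0.84, 0.70 and 0.95 in the CPIP libraries and 1.01, 0.92 and 1.17 in the CPIP+EA libraries. All CPIP values lay below all Sham values, though by little at the nearest (0.95 against 0.99 FPKM), and the CPIP+EA values lay across both groups. The CPIP mean of 0.830 ± 0.125 was 28.7% under the Sham mean of 1.16 ± 0.192 (SD, n = 3 each). The fitted log2 fold change was −0.32 (SE 0.13, 95% interval −0.62 to −0.022), with an unadjusted limma p of 0.0380 and an adjusted p of 0.528. The unadjusted p was under 0.05 in 14 of 22 alternative fits. Trpc6, a channel opened by diacylglycerol, measured 2.39, 1.86 and 1.56 FPKM in the Sham libraries, 1.30, 1.95 and 2.20 in the CPIP libraries and 2.48, 1.52 and 2.23 in the CPIP+EA libraries. It varied within every group by a coefficient of variation of 21.7 to 25.6%, the groups overlapped, and its log2 fold changes lay between −0.080 and 0.15, the last between CPIP+EA and CPIP with an interval that reached beyond 1.5-fold.

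Counted over the set, 2 of 9 members, Trpv1 and Trpc5, had values that did not overlap between CPIP and Sham, both lower in CPIP, where 15.9% of all genes did not overlap. Between CPIP+EA and CPIP 0 of 9 did not overlap (8.23% of all genes), between CPIP+EA and Sham 0 of 9 (16.2%), and between both ischemia groups and Sham 0 of 9 (7.27%). These counts lie close to what the background gives for 9 genes.

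The genes whose levels followed a member most closely across the 9 libraries were found among 13913 genes with a mean of at least 1 FPKM, by Pearson r of log2(FPKM + 0.5). For Trpv1 they were Rhbdd2, a rhomboid domain gene (r 0.98), Pirt (0.98) and Acvr1b, an activin receptor (0.97). Pirt encodes a phosphoinositide-binding membrane protein known to regulate TRPV1 and TRPM8, and it was in the list of regulators. Pirt measured 245, 237 and 226 FPKM in the Sham libraries, 213, 203 and 219 in the CPIP libraries and 228, 233 and 170 in the CPIP+EA libraries. The order of the 9 libraries was the same for Pirt as for Trpv1 (Spearman rho 1.0), from Sham replicate 1 at the top to CPIP+EA replicate 3 at the bottom. Pirt did not pass the threshold either, at −0.16 in CPIP against Sham (SE 0.11, limma adjusted p of 0.829) and −0.18 in CPIP+EA (adjusted p of 0.578). The ratio of Trpv1 to Pirt was 0.140 to 0.145 for Sham and 0.122 to 0.138 for CPIP, without overlap but close at the nearest, and CPIP+EA, at 0.122 to 0.147, spanned both. Among all pairs of the genes tested, counted with the pseudocount added, 16.5% did not overlap between CPIP and Sham.

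**Figure D5:**
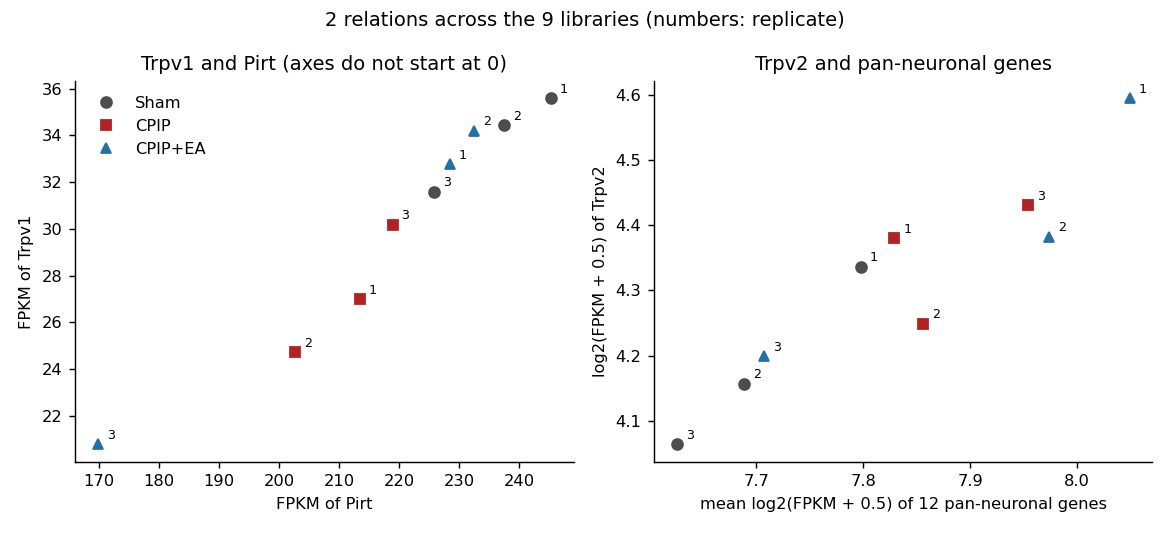
Left: FPKM of Trpv1 against FPKM of Pirt. Right: log2(FPKM + 0.5) of Trpv2 against the mean log2 level of 12 pan-neuronal genes. Each symbol is 1 of 9 libraries with its replicate number, and the axes do not start at 0. Libraries take the same order in Trpv1 and Pirt, and Trpv2 has a Pearson r of 0.93 with the pan-neuronal mean across the 9 libraries.

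For Trpa1 the closest genes were LOC103693419 (r 0.95) and Herc2, a ubiquitin ligase (0.94). For Trpm8 they were Slc12a9 (0.93), Por, the electron donor of cytochrome P450 enzymes (0.91), and Pigm, of GPI anchor synthesis (0.91). These are the extremes of many genes over 9 libraries that include the outlying CPIP+EA replicate 3. Between members, Trpv1 and Trpa1 had an r of 0.83 (0.81 with group means removed), and Trpv1 and Trpv2 an r of 0.22 that became 0.78 with group means removed. Trpv2 followed the pan-neuronal genes with an r of 0.93, where Trpv1 had 0.21 over all libraries and 0.91 with group means removed.

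Of 19 other TRP channel genes 14 were tested and 0 passed the threshold in any comparison. The most abundant were Mcoln1, a lysosomal channel, at 21.5 FPKM, Trpm7, a channel with a kinase domain, at 12.0, and Trpc1 at 9.92. Mcoln1, Trpm7 and Trpc1 gave log2 fold changes from −0.12 to 0.039 in the comparisons of 2 groups. Trpv3 and Trpm6 are named after their values were seen. Trpv3, a warmth-sensitive channel, gave a log2 fold change of 0.54 between CPIP+EA and Sham (SE 0.17, unadjusted limma p of 0.0117, adjusted p of 0.232), and Trpm6, a magnesium channel, gave −0.35 in CPIP and −0.37 in CPIP+EA against Sham (adjusted p of 0.416 and 0.259).

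Of 25 regulators of TRP channels and receptors that sensitize them, 24 were tested and 0 passed the threshold. Below 0 on the log2 scale lay 18 of the 24 in CPIP against Sham (52.1% of all genes), 12 in CPIP+EA against CPIP (45.9%) and 18 in CPIP+EA against Sham (49.6%), with medians of −0.052, −0.0026 and −0.092. Without overlap with Sham, 1 of the 24 lay higher and 8 lower in CPIP, and 2 higher and 4 lower in CPIP+EA. Among all genes 15.9% and 16.2% did not overlap in these comparisons, with 7.9% and 7.32% lower. The comparisons with Sham share its libraries, and the counts were not tested. Among the most abundant were S100a10, the annexin partner, at 1250 FPKM and Pirt at 219. The genes that follow were chosen after their values were seen. Ptger4, a prostaglandin E2 receptor, gave 0.62 in CPIP (SE 0.18, unadjusted limma p of 0.00660, adjusted p of 0.252) and 0.61 in CPIP+EA (adjusted p of 0.187) against Sham. Neither group overlapped with the Sham libraries, though CPIP by little at the nearest (4.20 against 4.18 FPKM). Bdkrb2, the bradykinin B2 receptor, gave 0.33 and 0.45 (adjusted p of 0.546 and 0.214), and Plcd4, a phospholipase C, −0.34 and −0.37 (adjusted p of 0.414 and 0.245). Prkca, a protein kinase C, was the one gene of the list with an unadjusted p under 0.05 between CPIP+EA and CPIP, at −0.13 (SE 0.05, adjusted p of 0.996).

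The markers of sensory neuron classes give the setting of these channels. Of the 8 peptidergic nociceptor markers, Adcyap1, the gene of the neuropeptide PACAP, rose in CPIP+EA against Sham (log2 fold change 0.98, SE 0.13, limma adjusted p of 0.00683) and was 0.92 in CPIP with an adjusted p of 0.0125, just outside the threshold. Of the 8 nonpeptidergic markers, Gfra1, a GDNF co-receptor, rose in CPIP (0.86, adjusted p of 0.00470) and in CPIP+EA (0.85, adjusted p of 0.00416) against Sham. It was not typical of its list, in which 5 of 8 lay below 0 in each of these comparisons, with medians of −0.055 and −0.22, and none of the 5 passed the threshold. Nerve injury genes rose by log2 fold changes of 1.04 to 6.61 in CPIP, the highest being Npy. Scn10a, the sodium channel of nociceptors and a nonpeptidergic marker, is named after its values were seen. It measured 71.5, 70.3 and 62.3 FPKM in the Sham libraries, 54.4, 57.8 and 54.4 in the CPIP libraries and 56.2, 49.4 and 32.8 in the CPIP+EA libraries, and its log2 fold change of −0.59 in CPIP+EA against Sham (SE 0.17) had a limma adjusted p of 0.173. The ratio of Trpv1 to Scn10a was 0.490 to 0.507 for Sham, 0.428 to 0.555 for CPIP and 0.583 to 0.693 for CPIP+EA, which thus lay above both other groups without a test. Among all pairs of the genes tested, counted with the pseudocount added, 8.82% did not overlap between CPIP+EA and CPIP. Between CPIP+EA and Sham 17.3% did not. In the lists of 8 large-fiber neuron markers and of 4 C-LTMR markers found in the table, 0 genes passed.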

How the data were processed

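RNA-Seq libraries of right L4–6 DRGs from 3 Sham, 3 CPIP and 3 CPIP+EA rats were used, with groups and replicate numbers taken from the sample titles. The authors sequenced 50-base single-end reads, removed adaptor reads, reads with more than 10% unknown bases and reads of low quality with SOAPnuke, and deposited a table of FPKM, rounded to 2 decimals, for each gene in each library. The aligner, build and annotation are not given in the sources used here. The authors' log2 ratios, P-values and Q-values between groups stand in the same table and were not used. The deposited table holds neither read counts nor the transcript lengths behind the FPKM, so counting errors were not computed, and the 3 libraries a group limit the precision. FPKM summed to between 445647 and 482940 per library, and no pair of libraries held identical values (lowest Pearson r of log2 values across genes 0.984).

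The 17187 genes averaging 0.1 FPKM or more entered the test, made on log2(FPKM + 0.5) by limma 3.58.1 under R 4.3.3, using an empirical Bayes fit with a mean-variance trend, without covariates, two-sided, with Benjamini-Hochberg adjustment. The threshold, an adjusted p under 0.01 and 1.5-fold, follows the study. The fit was tested on simulated data. Groups whose values do not overlap were counted without a test. Tables and figures used Python 3.11.15, numpy 2.4.6, pandas 2.3.3 and matplotlib 3.10.9. Genes were matched to RefSeq (GRCr8) by gene ID. Members and gene lists were chosen with earlier results of these data known. Named were all members, genes of the other lists past the threshold (2 to 3 examples are given where many passed), the 3 most abundant other TRP channels and regulators, and the 3 genes most correlated with each of the 3 most abundant members. Some genes that this rule names are not reported here. Any further gene is marked where it appears as picked with its values in view. Alternatives were pseudocounts of 0.1 and 1, no filter or an average of 1 FPKM or more, a TPM scale, quantile normalization, centring on the median or on pan-neuronal genes, a robust trend or none, a block for the replicate number, only the groups compared, an adjusted p under 0.05 with no fold limit, and each library left out.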

Additional observations from a re-analysis of the deposited data

How the results depend on the processing

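Under all alternatives 0 of the 9 TRP genes passed the threshold of each fit in any comparison, among them the fit with the replicate number as a block (replicate block: 0 members in each comparison). At an adjusted p under 0.05 with no fold limit 0 members passed on the scale of the report, but with pan-neuronal centring Trpv1 gave −0.47 with a limma adjusted p of 0.0393 between both ischemia groups and Sham. The numbers do not pair the rats: same-numbered libraries of different groups had correlations of their deviations between −0.24 and 0.30. The block took the calls among all genes from 61 to 26 in CPIP and from 83 to 42 in CPIP+EA against Sham. Of 30 log2 fold changes given for members, 13 kept 1 sign under every alternative. Centring on pan-neuronal genes gave −0.0083 for Trpv2 and −0.17 for Trpm8 between CPIP and Sham, and −2.2e-05 for Trpv2, −0.042 for Trpm2 and −0.13 for Trpc6 between CPIP+EA and Sham. A TPM scale gave −0.00036 for Trpm8 between CPIP and Sham.

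Members without overlap between CPIP and Sham numbered 1 after quantile normalization (16.1% of all genes), 5 with pan-neuronal centring (33.1%) and 2 to 4 with 1 library left out (15.9 to 28.2%). Between CPIP+EA and CPIP they numbered 1 with median centring (9.33%), 1 with pan-neuronal centring (4.88%) and 0 to 2 with 1 library left out (8.23 to 22.9%). Between CPIP+EA and Sham they numbered 3 with pan-neuronal centring (23.3%) and 0 to 2 with 1 library left out (16.2 to 28.9%), and between both ischemia groups and Sham 2 (16.6%) and 0 to 1 (8.38 to 13.1%). Under that centring, which put the median of all genes at −0.18, −0.20 and −0.19 in the comparisons of CPIP, CPIP+EA and both with Sham, 4, 4 and 5 members had an unadjusted limma p under 0.05, where 16.3, 22.2 and 25.0% of all genes did. Without both CPIP replicate 2 and CPIP+EA replicate 3, chosen after the data were seen, members without overlap numbered 3 between CPIP and Sham (25.8%), 2 between CPIP+EA and CPIP (33.2%), 2 between CPIP+EA and Sham (28.9%) and 1 between both ischemia groups and Sham (13.1%), and Trpv4 gave 0.035 between CPIP and Sham, Trpm3 0.037 between CPIP+EA and CPIP, and Trpm8 0.015 between both ischemia groups and Sham.

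With 1 library left out, these signs turned. Between CPIP and Sham, Trpv4 ran from −0.065 to 0.044, Trpm8 from −0.081 to 0.063, Trpm3 from −0.11 to 0.0089 and Trpc6 from −0.20 to 0.092. Between CPIP+EA and CPIP, Trpv1 ran from −0.059 to 0.29, Trpv2 from −0.063 to 0.14, Trpv4 from −0.10 to 0.029, Trpa1 from −0.27 to 0.12, Trpm8 from −0.17 to 0.0075, Trpm3 from −0.040 to 0.033 and Trpc6 from −0.017 to 0.32. Between CPIP+EA and Sham, Trpv4 ran from −0.11 to 0.023 and Trpc6 from −0.039 to 0.24, and Trpm8 between both ischemia groups and Sham from −0.089 to 0.0058. Counting error, which bears most on Trpv4, Trpc5 and Trpc6, was not computed, and with 3 libraries a group the 95% intervals of Trpv1, Trpa1, Trpc5, Trpm2 and Trpc6 reached beyond 1.5-fold in at least 1 comparison.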
